A study of Mus musculus with 3 samples.

Results

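Chromatin-bound RNA of mouse bone-marrow-derived macrophages carried 155 well-covered antisense noncoding RNAs, out of 2945 genes whose transcripts are all typed antisense and out of 55536 annotated genes in all. The type marks genes annotated on the strand opposite another gene, although 3 members overlap no opposite-strand gene in this annotation. Members were chosen by their expected count, the number of sequenced fragments assigned to a gene, which had to average at least 100 over the libraries. Tsix and genes named Snhg were left out, which removed 3 antisense-type genes before that minimum. The expected counts chose the members, so the levels below are a description and carry no test.

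The macrophages were grown from marrow of C57BL/6J mice and received 100 ng/ml lipid A for 30 min. Lipid A is the part of bacterial endotoxin that is sensed by the receptor TLR4. RNA of the chromatin fraction was depleted of ribosomal RNA and sequenced as total RNA, in 1 group of 3 libraries from 1 donor record, made from 1 µg, 250 ng and 500 ng of RNA for libraries 1 to 3. All libraries received lipid A and no untreated library was analysed here, so the values are levels at that time and not responses. Because C57BL/6J is inbred, the parental alleles of imprinted loci cannot be told apart. The starting amounts differ between the libraries, so their part and that of anything else that differs cannot be told apart. The labels number the libraries as biological replicates but do not say whether they came from separate mice, so the spreads may be partly technical.

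Antisense RNAs are made from the strand opposite a gene, often a protein-coding one. Some start beside the promoter of their partner and run away from it, some start inside the partner and run back through its promoter, and some lie in its introns. A few are known to act where they are made: the RNAs of imprinted loci such as Kcnq1ot1 and Airn remain at the chromatin of their own domain and silence genes on the same chromosome copy in embryonic tissues. Most others have no known role. Chromatin fractions hold RNA still attached to polymerase together with RNAs that remain in the nucleus, so unspliced RNA of coding genes is abundant there as well.

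Sequencing depth was similar, at 16301150, 17033725 and 16205704 expected counts for libraries 1 to 3. All 8 macrophage markers were detected at mean expected counts of at least 10, at mean levels of 7.61 to 209 TPM, a level that accounts for transcript length and has a fixed sum per library. No marker of T and NK cells, B cells or erythroid cells was detected. 1 of 6 neutrophil markers was, at a mean of 12 counts, and 4 of 6 stromal and endothelial markers were, at no more than 1.18 TPM. The highest of these 4, the endothelial marker Kdr, averaged 132 counts. In bulk RNA, fewer cells of a type and less RNA per cell cannot be told apart. The strand setting of the quantification is not given in the sources used here. Without it, reads of an antisense gene and reads of the gene on the other strand cannot be told apart. Values that bear on this are given with the results below. Of the 155 members, 72 had whole expected counts, within 0.01, in every library. The others had fractional counts in some library, and which genes shared those reads was not tested.

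The 155 antisense RNAs together took 0.589%, 0.494% and 0.615% of the counts of libraries 1 to 3, with a mean of 0.566% ± 0.064 (SD, n = 3). Their sum was lowest in library 2. Kcnq1ot1 alone held 28.8% ± 2.82 of these counts, and the 12 antisense RNAs with the most reads held 57.4% ± 0.80 (SD, n = 3 each). By mean count, 13 were at 1000 or more, 75 between 200 and 1000, and 67 under 200. 131 reached 100 in every library, and the lowest count of a member in any library was 59.2. Of the antisense-type genes, 5.26% met the minimum of 100, against 32.1% of 22028 protein-coding genes, 16.1% of 3219 genes awaiting experimental confirmation (TEC), 15.0% of 327 sense-intronic genes and 2.08% of 5854 long intergenic RNA genes. 1351 antisense-type genes had no count in any library. Just inside the minimum lay Gm12333 at a mean of 101 counts and Gm45285 and Gm19522 at 100.3 each. Just outside lay Gm28370 at 97.7, Gm26749 at 97.3 and 1700008B11Rik at 97.0.

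**Figure D1:**
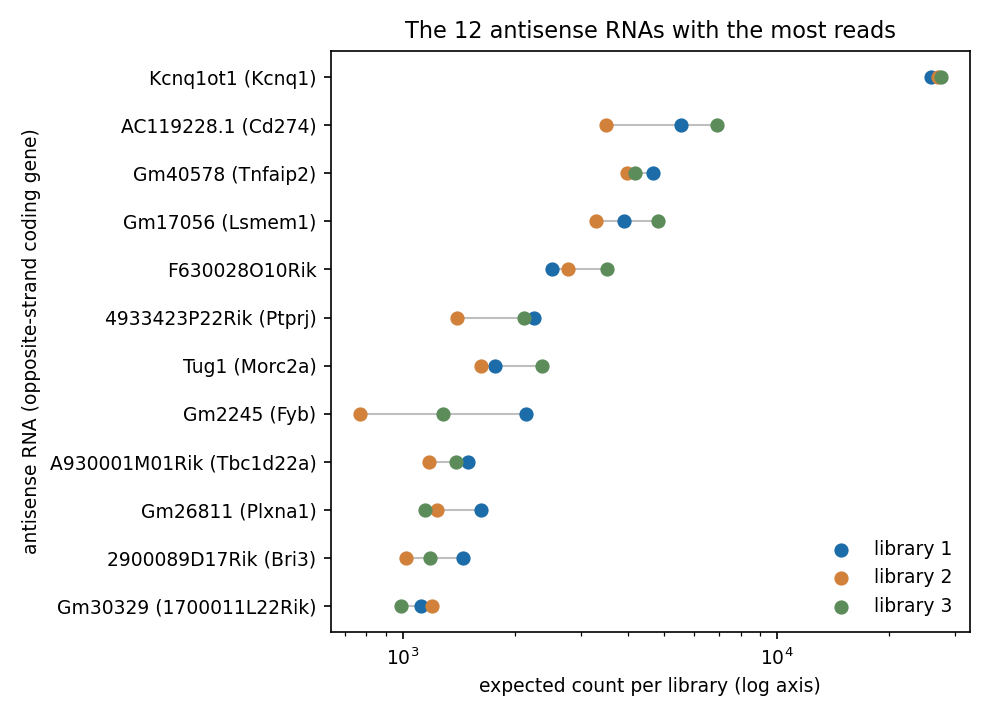
Expected counts of the 12 antisense RNAs with the most reads, on a log axis, with 1 point for each library and a grey line over their range. The opposite-strand coding gene is in brackets, and F630028O10Rik has none. Kcnq1ot1 stands at 25812 to 27415 counts in all libraries, while Gm2245 runs between 769 and 2137.

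Kcnq1ot1, the long nuclear RNA that starts in an intron of Kcnq1 and runs against it, had the most reads. It is annotated on the minus strand of chromosome 7 as 1 exon of 93092 bases (GRCm38 chr7:143203458-143296549). Its expected counts were 25812, 26977 and 27415 in libraries 1 to 3, and its levels were 10.4, 11.9 and 18.3 TPM. The median of all genes of at least 100 counts was 7.32, 8.82 and 13.4 TPM in the same libraries. SDs of TPM given below for single genes include this difference between libraries. The counts of Kcnq1ot1 lay close together, with a range of 0.13 in log2 CPM, the count scaled to library size. Kcnq1, the potassium channel gene that contains it, had 4, 6 and 4 counts. Kcnq1ot1 therefore stood 5.74 ± 0.33 log2 units above Kcnq1 in TPM with 0.1 added (SD, n = 3), a value that depends on the number added because Kcnq1 was at 0.153 TPM. No other opposite-strand gene that it overlaps had more counts than Kcnq1, and 1.20% of its exon overlaps opposite-strand exons.

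Among 10 coding genes of the Kcnq1 imprinted region, 7 reached 10 counts and 2 reached 100. Those 2 were Nap1l4, a histone chaperone gene, at 20.6 ± 1.52 TPM, and Tspan32, a tetraspanin gene, at 4.86 ± 2.38 TPM (SD, n = 3 each). Cdkn1c, the cell cycle inhibitor that Kcnq1ot1 is known to silence on the paternal copy, had 36, 31 and 40 counts, and Phlda2 had 0, 1 and 0. Both were below Kcnq1ot1 in TPM in every library.

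Airn is the other imprinted antisense RNA among the members. It starts within Igf2r, the gene of the receptor for mannose-6-phosphate and insulin-like growth factor 2, on the plus strand of chromosome 17 (GRCm38 chr17:12741311-12860136). Airn had 395, 420 and 293 expected counts, and Igf2r had 2648, 3432 and 1859. Library 3 was the lowest of the 3 for both genes. Per length, Airn was at 21.4 ± 2.03 TPM and Igf2r at 16.2 ± 2.68 TPM, a difference of 0.41 ± 0.20 in log2 TPM with 0.1 added (SD, n = 3). The second quantification of the reads, described at the end, gave Airn a mean of 1428 counts and 79.7 TPM, so its level is uncertain. The annotated exons of Airn overlap no opposite-strand exon, but they lie partly in introns of Igf2r. Slc22a2 and Slc22a3, the transporter genes of the same domain, had 0 counts in every library, and Mas1 had 21, 19 and 14.

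Promoter windows are shown for Kcnq1ot1, with the most reads, for F630028O10Rik, which overlaps no opposite-strand gene, for 2900089D17Rik, which had more counts than every gene opposite it, and for Dnmt3aos, an antisense RNA named after its partner. Each runs from 250 bases before to 50 bases after the RefSeq start on GRCm38.p6, 5′ to 3′ on the gene's strand. Capitals mark matches to the motifs searched. The windows lie at chr7:143296498-143296797 on the minus strand, chrX:96239676-96239975 on the plus strand, chr5:144256106-144256405 on the minus strand and chr12:3862195-3862494 on the minus strand.
Kcnq1ot1: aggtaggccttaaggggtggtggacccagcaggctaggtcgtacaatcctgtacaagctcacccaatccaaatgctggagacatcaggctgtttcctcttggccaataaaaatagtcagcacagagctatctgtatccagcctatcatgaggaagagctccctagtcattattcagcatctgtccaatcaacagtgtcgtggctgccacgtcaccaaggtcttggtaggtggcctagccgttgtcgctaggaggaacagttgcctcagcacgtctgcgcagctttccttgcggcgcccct
F630028O10Rik: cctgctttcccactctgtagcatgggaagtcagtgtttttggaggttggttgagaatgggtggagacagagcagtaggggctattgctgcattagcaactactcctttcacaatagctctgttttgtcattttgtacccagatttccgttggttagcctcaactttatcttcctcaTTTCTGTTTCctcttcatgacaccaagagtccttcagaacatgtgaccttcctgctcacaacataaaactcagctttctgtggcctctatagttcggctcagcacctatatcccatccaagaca
2900089D17Rik: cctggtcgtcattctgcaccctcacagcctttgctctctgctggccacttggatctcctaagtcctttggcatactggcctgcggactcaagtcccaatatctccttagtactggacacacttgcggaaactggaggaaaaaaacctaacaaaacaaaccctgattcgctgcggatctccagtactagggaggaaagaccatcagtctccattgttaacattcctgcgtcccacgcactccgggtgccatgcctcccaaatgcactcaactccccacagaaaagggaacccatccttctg
Dnmt3aos: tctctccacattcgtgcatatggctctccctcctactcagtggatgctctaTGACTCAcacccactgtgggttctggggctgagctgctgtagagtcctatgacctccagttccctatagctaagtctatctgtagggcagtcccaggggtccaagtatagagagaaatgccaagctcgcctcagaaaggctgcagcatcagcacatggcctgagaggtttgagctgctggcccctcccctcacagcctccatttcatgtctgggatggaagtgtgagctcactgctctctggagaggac

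Windows were found for 58 of the 155 members, and 36 of them start within 100 bases of the annotated start. The motifs were searched on both strands. The core motif of interferon response elements, marked in F630028O10Rik, was in 4 of the 58 windows (6.90%), against 3.43% of all 32807 windows. The AP-1 motif TGANTCA, marked in Dnmt3aos, was in 5 (8.62%), against 7.82% of all. The NF-kB motif was in 5 (8.62%), against 8.46%, and TATAAA in 8 (13.8%), against 13.6%. GGGCGG was in 15 (25.9%), against 35.6%. GAGGAAGT, a PU.1 motif, was in 1 (1.72%), against 3.20%, and TGACGTCA in 0, against 1.79%. These letter matches are a description and name no bound site. The median CpG frequency over that expected from base content was 0.28 in the member windows and 0.38 in all windows.

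The next 3 members by count lie at loci of genes with many reads. AC119228.1 lies inside Cd274, the gene of the checkpoint ligand PD-L1, on the minus strand (GRCm38 chr19:29373417-29384471). It had 5552, 3492 and 6938 counts, and Cd274 had 6819, 5003 and 8493. Library 2 was the lowest and library 3 the highest for both. The difference was -0.39 ± 0.16 in log2 TPM with 0.1 added (SD, n = 3), and 10.8% of its exon bases overlap opposite-strand exons.

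Gm40578 ends within Tnfaip2, a gene that responds to tumour necrosis factor (GRCm38 chr12:111450405-111500840, minus strand). It had the highest TPM of the members, at 242, 237 and 378 in libraries 1 to 3, from 4669, 3970 and 4183 counts. Tnfaip2 averaged 1532 ± 434 TPM, and 29.4% of the exon bases of Gm40578 overlap opposite-strand exons. Gm40578 was lower than Tnfaip2 by 2.42 ± 0.19 in log2 TPM with 0.1 added (SD, n = 3 each), with no overlap between the libraries of the 2 genes.

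Gm17056 (GRCm38 chr12:40198656-40201105, plus strand) had 3911, 3293 and 4797 counts. Its partner Lsmem1, a membrane protein gene that it overlaps at the start, had 0, 0 and 3. The plus-strand gene lies 461 bases beyond the end of Ifrd1, a transcription coregulator gene on the minus strand with 38405, 36115 and 48383 counts. Both Gm17056 and Ifrd1 were highest in library 3 and lowest in library 2. Read-through of Ifrd1 into Gm17056 was not tested. Gm7008, another member, lies inside Ifrd1 (GRCm38 chr12:40222758-40229184) and had 400, 579 and 685 counts, or 23.7 ± 12.6 TPM against 1449 ± 599 TPM for Ifrd1 (SD, n = 3 each).

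F630028O10Rik on chromosome X overlaps no gene on the other strand (GRCm38 chrX:96239926-96243636, plus strand). It had 2511, 2769 and 3508 counts and 53.0 ± 25.3 TPM (SD, n = 3), the fourth-highest level of the members. Some opposite-strand genes run towards F630028O10Rik and end within 10000 bases beyond its own end. The one with the most counts was Vsig4, a macrophage complement receptor gene that lies 3566 bases away and averaged 5.33 counts.

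Tug1, a long noncoding RNA described in many tissues, starts within Morc2a, a chromatin regulator gene (GRCm38 chr11:3639785-3649673, minus strand). Tug1 had 1767, 1623 and 2361 counts, and Morc2a had 1720, 2405 and 1727. In these counts they moved apart between libraries: Tug1 was highest in library 3 and Morc2a in library 2. The second quantification gave Tug1 5934, 2418 and 3341 counts, highest in library 1, so its order over the libraries is uncertain. 4933423P22Rik, which lies in introns of Ptprj, the gene of a receptor tyrosine phosphatase, had 2239, 1400 and 2115 counts, against 3908, 3377 and 3518 for Ptprj. Per length the 2 were within the spread of the libraries, at 0.10 ± 0.33 log2 units (SD, n = 3). Gm47917, in introns of the Golgi mannosidase gene Man1a, was at 34.3 ± 23.7 TPM (SD, n = 3), from 613, 281 and 773 counts, against 2078, 1790 and 2588 for Man1a. Library 2 was the lowest for both. A930001M01Rik in Tbc1d22a had 1491, 1173 and 1391 counts, against 2031, 2347 and 1916. Gm26811, which ends in the semaphorin receptor gene Plxna1, had 1615, 1237 and 1148, against 8817, 9911 and 7172.

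Most members lie within a coding gene. 95 of 155 (61.3%) lay wholly inside the gene body of their partner, the opposite-strand coding gene with the largest overlap, against 54.5% of all 2945 antisense-type genes. A further 29 had only their end in the partner, 22 had only their start in it, 5 spanned it and 4 had no partner. Few were head-to-head pairs without overlap at their starts. 6 (3.87%) started within 1000 bases of the start of a coding gene that points away from them, against 6.76% of all antisense-type genes. They are E130307A14Rik with Rev3l, Gm16892 with Nit2, Brip1os with Brip1, Gm17435 with Slc35e1, Atxn7l1os2 with Efcab10 and Gm15567 with Numbl. Starts that overlap were more frequent: 22 (14.2%) started within 1000 bases of an opposite-strand coding start and ran across it, against 14.5% of all antisense-type genes. 54 (34.8%) shared no exon base with an opposite-strand gene, against 41.4%, and 5 (3.23%) had over 50% of their exon bases over opposite-strand exons, against 12.6%. These shares come from the annotation and were not tested.

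Antisense RNAs were mostly below their partner. Over the 151 members with an overlapping partner, the median difference was -2.15 ± 0.15 in log2 TPM with 0.1 added (SD over 3 libraries). 128 were below the partner in every library and 18 were above it in every library. The median was -2.31 ± 0.08 for the 97 members whose exons overlap partner exons and -1.86 ± 0.18 for the 51 with no opposite-strand exon overlap (SD, n = 3 libraries each). 138 members had a partner of at least 100 counts, and 88 had one of at least 1000. The median partner had 1561 counts. Across the 151 pairs, the mean TPM of member and partner had a Spearman correlation of 0.32. The pairs share libraries, and 17 members share 7 partners.

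**Figure D2:**
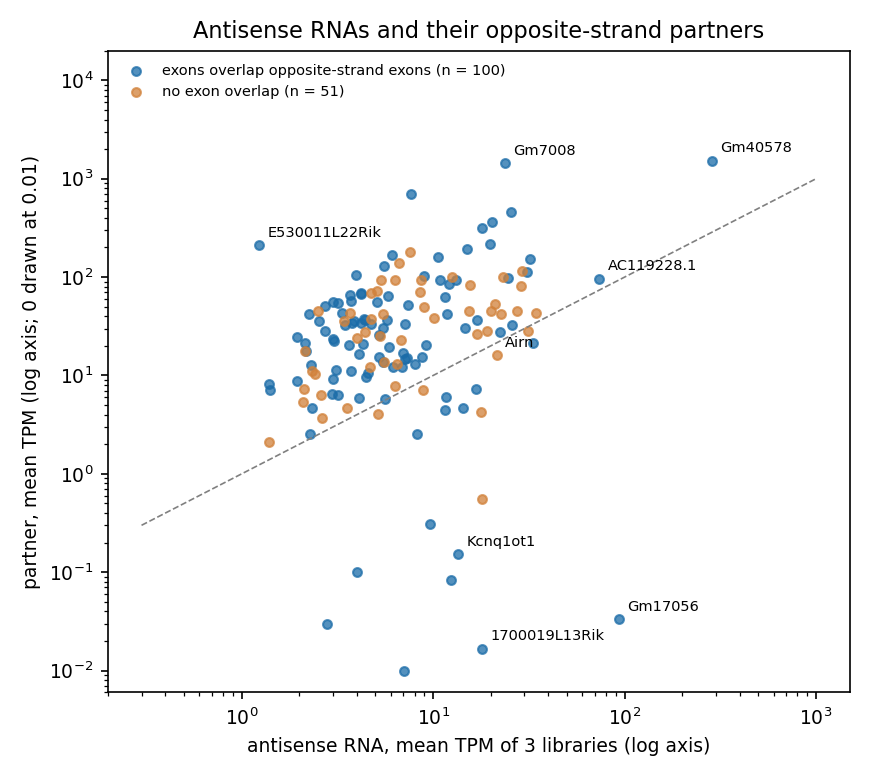
Mean TPM of each antisense RNA (horizontal) and of its partner (vertical), over 3 libraries, on log axes, for 151 pairs. Points above the dashed line of equal levels have the partner higher, as for Gm7008, Gm40578 and E530011L22Rik. Points far below the line, such as Kcnq1ot1 and Gm17056, have a partner with few or no reads.

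The members lowest against their partner lie opposite genes with many reads. E530011L22Rik had 145, 110 and 141 counts, against 13127, 13505 and 15265 for Nktr, a cyclophilin-related gene it ends in, a difference of -7.32 ± 0.29 in log2 TPM with 0.1 added. Gm37305, opposite the cyclin L gene Ccnl1, differed by -6.57 ± 0.33, Gm7008 by -5.99 ± 0.31 and Gm28379, opposite the ubiquitin ligase gene Herc1, by -4.75 ± 0.31. Dnmt3aos, opposite the DNA methyltransferase gene Dnmt3a, had 176, 175 and 122 counts, against 15630, 19692 and 12720, a difference of -4.74 ± 0.15 (SD, n = 3 each). All 5 were below the partner in each library.

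5 members stood highest against their partner, and in 3 of them another opposite-strand gene at the same place had many reads. They were Gm17056, 1700019L13Rik, Gm47079, Etohd2 and Kcnq1ot1. Their partners had 5 counts or fewer on average, so the differences rest on the 0.1 added to TPM and only the one of Kcnq1ot1 is given. 1700019L13Rik lies in Cx3cr1, the fractalkine receptor gene, which had 1, 2 and 1 counts, but it also overlaps Csrnp1, a nuclear protein gene at a mean of 3137 counts. Gm47079 spans Icam4 at 0, 5 and 0 counts and also overlaps the adhesion gene Icam1 at 15810. Etohd2 lies in Gm49354, which is listed at 0 in all libraries, and also overlaps the RNA uridylyltransferase gene Tut7 at 8166. For these 3, the partner is not the opposite-strand gene with the most reads.

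Counted against every opposite-strand gene they overlap, 19 of 152 members had more counts than all of them, and 3 further members overlapped none. The 133 members below an overlapping opposite-strand gene had a median level of 5.47 ± 1.97 TPM, and the other 22 had 11.5 ± 4.11 TPM (SD over 3 libraries each). The members' own counts enter this split, so a higher level in the 22 is partly built in. Of those 22, 21 had no opposite-strand gene of 100 counts or more ending within 10000 bases beyond their own end. The exception was Gm17056. The 21 include Kcnq1ot1, F630028O10Rik, 2900089D17Rik, Gm30329, B930036N10Rik and Rab10os. Gm30329 had 1119, 1197 and 992 counts, against 26, 36 and 18 for 1700011L22Rik around it. B930036N10Rik had 616, 852 and 618 counts, against 7, 8 and 6 for Alyref2. 2900089D17Rik, which starts in the membrane protein gene Bri3, had 1445, 1019 and 1183 counts, against 510, 413 and 532. In TPM it was lower than Bri3, at 25.7 ± 7.52 against 32.4 ± 11.7 (SD, n = 3 each). The second quantification gave 2900089D17Rik a mean of 2398 counts and 136 TPM, so its level is uncertain. Baiap2l1, at a mean of 805 counts on the strand of 2900089D17Rik, ends 8339 bases before it. By TPM, 16 of the 152 members were above the opposite-strand gene with the most reads. Gm26982 had 680, 799 and 545 counts, against 133, 192 and 145 for Ghrl, the ghrelin gene, but Tatdn2, at a mean of 2564 counts on the strand of Gm26982, ends 3901 bases before it.

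Antisense-type genes lying in introns had more reads where the gene around them had more. Over 767 antisense-type genes that lie in the introns of 1 opposite-strand coding gene with no exon overlap, 43 of them members, the median density was 0 counts per kb of exon where the host had under 10 counts (348 genes). It was 1.71 at hosts of 10 to 100 counts, 7.34 at 100 to 1000, 35.8 at 1000 to 3000 and 30.5 at 3000 and over. The share that met the minimum of 100 counts was 0%, 3.05%, 7.01%, 18.2% and 25.9% over the same classes. Of these 767 genes, none with a host under 10 counts was therefore a member. Kcnq1ot1, inside Kcnq1 at a mean of 4.67 counts, is not among the 767, because its exon overlaps opposite-strand exons.

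At hosts of 100 counts or more, TEC genes on either strand had higher median densities than antisense-type genes. Sense-intronic genes were higher in 1 of the 3 classes and lower in the others. Sense-intronic genes had medians of 0, 2.11, 16.9, 33.4 and 15.0 counts per kb over the 5 host classes. TEC genes on the host's strand had 0, 2.08, 28.2, 74.4 and 106, and TEC genes on the opposite strand had 0, 1.27, 16.0, 43.2 and 101. The quartile ranges of the 4 kinds overlapped in every host class. The share of same-strand TEC genes that met 100 counts was 33.4%, 68.6% and 73.0% in the 3 upper host classes. That of opposite-strand TEC genes was 27.3%, 39.1% and 57.1%. Both were above the 7.01%, 18.2% and 25.9% of antisense-type genes in each class. The share of sense-intronic genes was 22.8%, 28.8% and 23.1%. Whether intron reads of the host entered the antisense counts was not tested. Tsix, which is antisense to Xist, was left out of the members and had 6.20, 7.48 and 4.88 counts, beside 215134, 213249 and 238435 for Xist. The counts of Tsix were thus far below those of Xist in every library.

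**Figure D3:**
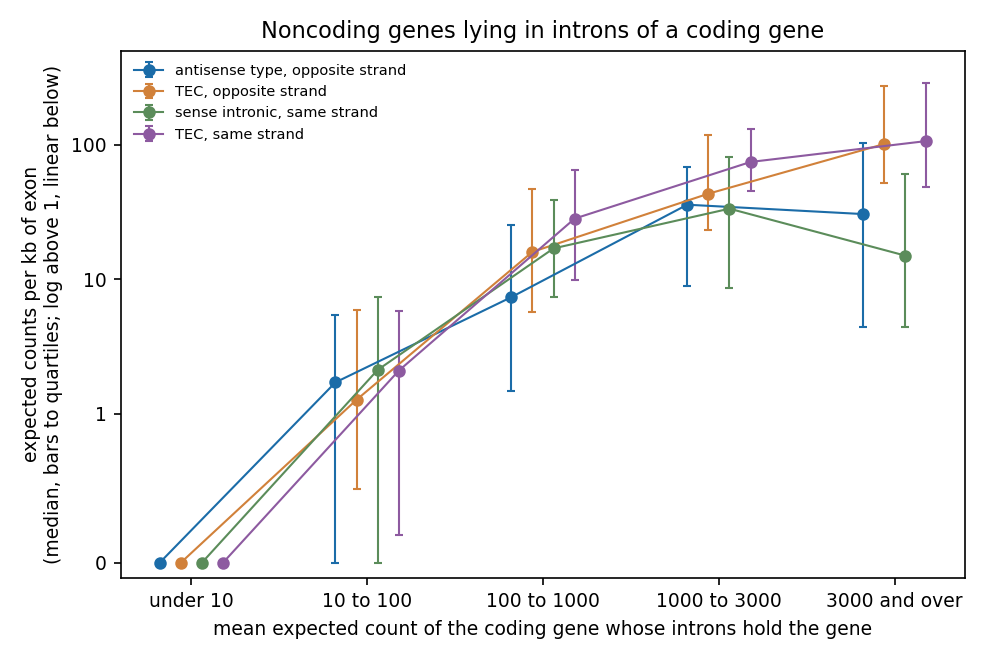
Median expected counts per kb of exon (points, with bars to the quartiles; log scale above 1 and linear below) for noncoding genes in introns of 1 coding gene, by the mean expected count of that gene. Antisense-type genes, on the strand opposite the host, have medians of 0, 1.71, 7.34, 35.8 and 30.5 over the host classes, and the bars of genes on the same strand overlap theirs in each class.

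7 coding genes had more than 1 member opposite them. Arhgap10, at a mean of 4364 counts, had 4: 0610038B21Rik, Gm45406, 4933421D24Rik and Gm45285, with means of 100.3 to 321 counts. 0610038B21Rik had 433, 296 and 235 counts and is the member of the 4 whose exons overlap opposite-strand exons, at 10.6% of their bases. Lrmda had 3, Gm7480 at 567, 259 and 324 counts, 4930405A10Rik at 361, 267 and 311, and Gm10248 at 123, 101 and 162. Lrmda itself had 715, 641 and 572 counts. Atxn7l1, Cdk6, Hmga2, Uvrag and Zbtb20 had 2 each.

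No member was called in the test of spread between libraries. With edgeR's quasi-likelihood test over 13309 genes and Benjamini-Hochberg adjustment, 0 of 155 members were called as varying more than genes of like abundance, and 0% of all genes tested were. The lowest adjusted p of a member was 0.665, for Gm37787. At an unadjusted p under 0.05 there were 16 members (10.3%), against 4.92% of all genes tested (655). DESeq2's dispersion outliers included 0 members and 96 of 23976 genes. The 0 calls do not show that the members were even over the libraries, and the widest ranges of log2 CPM were those of Gm27177 at 1.77, Gm37787 at 1.59, Gm2245 at 1.56, 6530409C15Rik at 1.51 and Gm28914 at 1.41. Gm2245, opposite the immune cell adaptor gene Fyb, had 2137, 769 and 1285 counts, against 9940, 8114 and 7780 for Fyb. Gm37787, which lies in the receptor gene Slamf7 with 72.3% of its exon bases over opposite-strand exons, had 450, 157 and 173. Gm28914, in the kinase gene Ikbke, had 263, 173 and 115. Gm27177, which starts in the lysyl oxidase family gene Loxl2 and also overlaps Entpd4b at a mean of 349 counts, had 326, 101 and 171. 6530409C15Rik had 194, 72 and 135, against 1224, 730 and 1004 for the zinc finger gene Zfp800 that it ends in. All 5 were highest in library 1.

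The members as a whole were also uneven over the libraries. 74 were highest in library 1, 30 in library 2 and 51 in library 3, while 83 were lowest in library 2. The median deviation from a gene's own mean was 0.16, -0.16 and -0.04 log2 CPM in libraries 1 to 3, against 0.02, 0.03 and -0.05 for the 8199 genes of at least 100 counts. The share lowest in library 2 was 53.5% for the members, 77.6% for the 49 sense-intronic genes and 64.1% for the 518 TEC genes of at least 100 counts, against 25.8% for the 7077 protein-coding genes. Library 2 was made from the least RNA, and the part of starting RNA in this was not tested. The range over libraries exceeded 1 in log2 CPM for 30 members (19.4%), against 14.9% of TEC genes, 10.2% of sense-intronic genes and 8.87% of all genes of at least 100 counts. It did so for 17.8% of all genes of at least 10 counts.

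**Figure D4:**
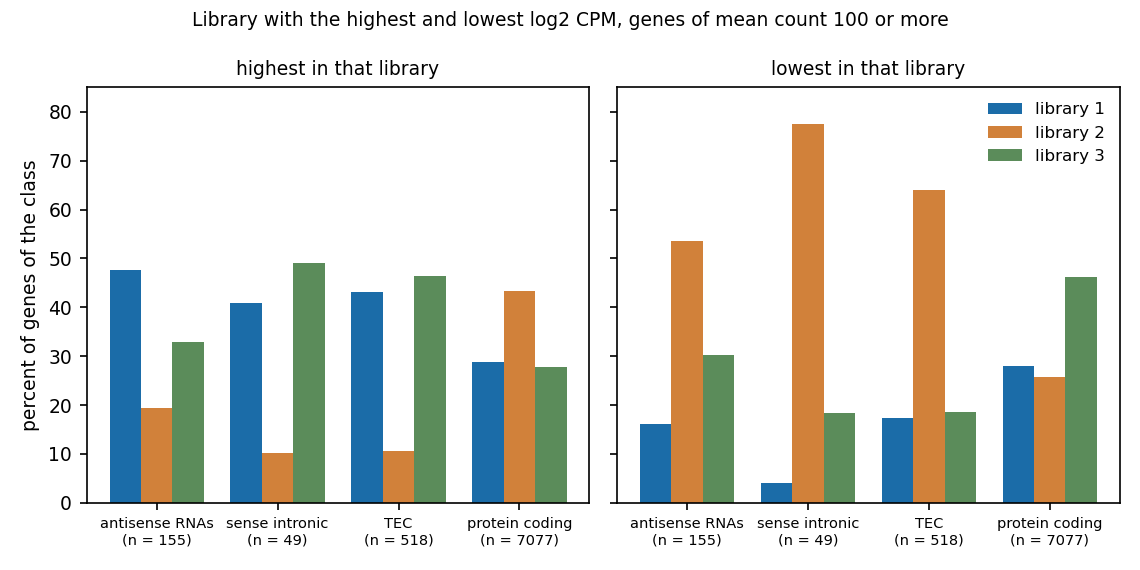
Percent of genes of each class that had their highest (left) or lowest (right) log2 CPM in libraries 1, 2 and 3, among genes of mean count 100 or more. Library 2 holds the lowest value for 53.5% of the antisense RNAs, 77.6% of sense-intronic and 64.1% of TEC genes, against 25.8% of protein-coding genes.

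Deviations of members and partners were correlated, with signs that often differed. Over the 138 members whose partner had at least 100 counts, the deviations from each gene's own mean in log2 CPM had a Pearson r of 0.56, 0.47 and 0.46 in libraries 1 to 3. They had the same sign in 109, 74 and 87 of the pairs. Member and partner share the library and its depth, and 1 coding gene can enter several pairs, so this is a description, and no value for unmatched pairs was computed. Tug1 and Morc2a, described above, were highest in different libraries in the first quantification. Gm10634 and Bcl2a1d are a pair that varied alike. Gm10634 had 1028, 474 and 658 counts, and Bcl2a1d had 691, 262 and 365. Bcl2a1d is an apoptosis inhibitor gene of a family of near-identical copies that share reads. The exons of Gm10634 do not overlap those of Bcl2a1d, and Gm10634 also overlaps Mthfsl, at a mean of 2425 counts. E430024P14Rik had 637, 376 and 380, against 1279, 591 and 647 for Tagap. In both pairs library 1 stood above the others.

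Antisense RNAs whose partner is a listed lipid A response gene included 3 members. Of 89 listed response genes, 10 were the partner of an antisense-type gene. Of those 10 antisense-type genes 3 were members, against 5.26% of all: Gm40578 at Tnfaip2, Gm26885 at Pim1 and Gm7008 at Ifrd1. Only the assigned partner was counted. Gm47079, whose partner is Icam4, also overlaps the listed gene Icam1 and is not among the 3. The list was chosen with earlier results of these data known, and the share over these 10 genes was not tested. Tnfaip2, Pim1 and Ifrd1 averaged 49048, 4305 and 40968 counts, and the 5.26% is not matched for partner counts. Among intronic antisense-type genes with hosts of 3000 counts and over, 25.9% met the minimum. Gm26885, opposite the kinase gene Pim1, had 1089, 1187 and 863 counts, against 4335, 3632 and 4946 for Pim1. The closest to the minimum was Il1bos, antisense to the interleukin-1 beta gene Il1b, at 118, 88 and 80 counts beside a mean of 7815 for Il1b. Gm36328 at Dusp16 averaged 31.0 counts, Junos at Jun 13.5 and Gm11175 at Jund 12.8. Of 38 interferon genes 2 were the partner of an antisense-type gene, and of 48 macrophage genes 5 were. None of these antisense-type genes was a member. With 7 genes and 5.26% of all antisense-type genes meeting the minimum, nothing is read from this. The highest of those 7 was Gm26626 at Runx1, a transcription factor gene of blood cells, with 91, 57 and 60 counts.

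A list of 25 noncoding genes known from other work, most of them named as antisense or host RNAs, held 3 members: Kcnq1ot1, Airn and Dnmt3aos. 8 were antisense-type genes below the minimum, of which Nespas, the antisense RNA of the imprinted Gnas locus, had 1, 8 and 5 counts and Hotairm1 of the HoxA cluster had 0 in all libraries. 13 carried another type in the tables and so could not be members, whatever their level, and 1 was not matched. Among those 13, Gm26917 averaged 2409039 counts, Dleu2 4188, Zeb2os 564, Zfas1 465, Mir155hg 463 and Ftx 422. Gm26917 had 2407482, 2920850 and 1898786 counts in libraries 1 to 3, which are part of the library totals used for the members' shares.

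Per length, the members' median was 6.02 ± 1.85 TPM, against 5.53 ± 2.59 TPM for TEC genes, 4.86 ± 2.21 TPM for sense-intronic genes and 9.84 ± 3.15 TPM for all 8199 genes of at least 100 counts (SD over 3 libraries each). The members' median was 5.17, 4.75 and 8.15 TPM in libraries 1 to 3, and that of all genes of at least 100 counts was 7.32, 8.82 and 13.4, so library 3 was highest for both. 51 members averaged at least 10 TPM and 62 under 5. Their median merged exon length was 2502 bases, against 5142 for all genes of at least 100 counts. 98 had 1 transcript, and in 48 of the other 57 the same transcript led in every library.

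A second quantification of the same reads gave other counts for many members, and 6 of its 12 highest were among the 12 highest of the first. It gave 154 of the 155 more counts, with library totals 1.63 ± 0.095 times those of the first (SD, n = 3). 110 members were within 2-fold in mean counts, 141 were after scaling to library totals, and 9 were over 4-fold apart. The Spearman correlation over the 155 members was 0.81, and the quantifications share the reads. Gm48754, in the GTPase gene Rala, had 124, 72 and 108 counts in the first and a mean of 3065 in the second. Gm4117, which ends in the DNA repair gene Xrcc4, averaged 387 and 6653 in the first and second, Gm9917 at the tumour suppressor gene Rassf1 137 and 1698, Gm20234 at Slfn2 307 and 3160, and Gm44649 in the scaffold gene Iqgap1 215 and 1406. The levels of these 5 are therefore uncertain.

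**Figure D5:**
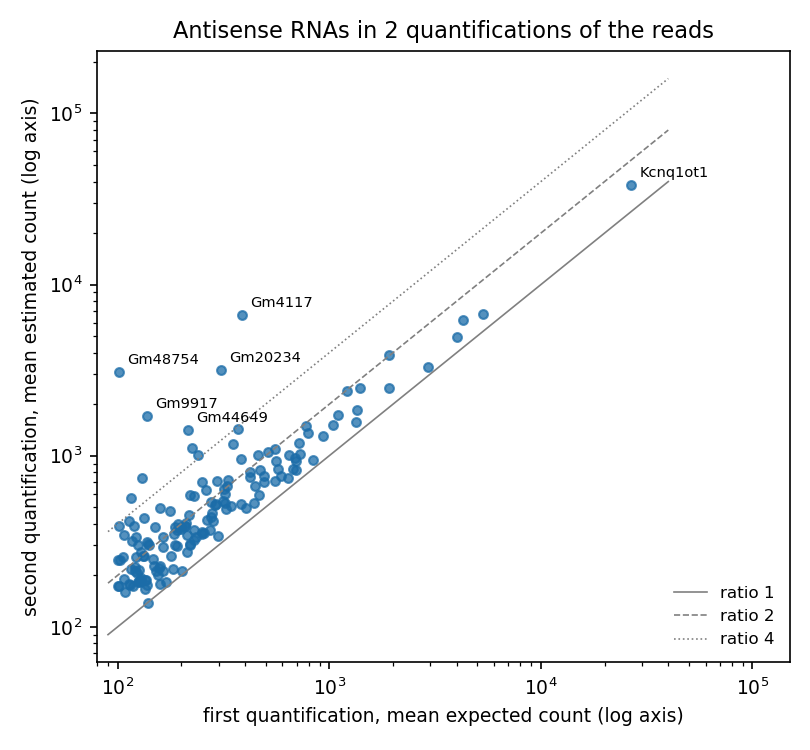
Mean counts of the 155 antisense RNAs in the first (horizontal) and second (vertical) quantification, on log axes, with lines at ratios of 1, 2 and 4. 154 lie above the line of equal counts, and 5 of the 9 members over 4-fold apart are named.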

How the data were processed

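Chromatin-fraction total RNA was measured in 3 libraries of 1 group. The authors deposited, per library, a gene table with expected counts (not normalised) and TPM (scaled to a fixed total with effective lengths), transcript tables, and a second table of estimated counts and TPM, per the file headers. Posterior mean TPM with credible bounds, and the percent of a gene's abundance per transcript, are in the deposited tables. Neither quantification tools nor strand use are named in the labels or headers read here. The file notes list mm10 and GENCODE M21, whose annotation gave positions. Members and gene lists were chosen with earlier results of these data known.

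Antisense-type genes were those whose transcripts all carry the type antisense in the second table. Library totals were 16301150, 17033725 and 16205704 expected counts. A count of 0 allows up to 3 counts, or 0.184, 0.176 and 0.185 CPM, for counting error only. TPM levels use log2(TPM + 0.1). For the spread, expected counts were rounded, filtered by filterByExpr, scaled by TMM and fitted with an intercept alone by the quasi-likelihood method of edgeR 4.0.16 (R 4.3.3). Its F ratios, adjusted by Benjamini-Hochberg, were called under 0.05, and the method was checked on simulated counts. That check called 51 of 100 genes raised 4-fold in library 1 and 98 of 100 raised 8-fold, with 0 false calls. Smaller changes can therefore be missed. In the simulated counts, genes of like abundance were all given the same variability. The real genes need not share this, so the check describes that setting only. log2 CPM used a prior count of 0.5. Alternatives were other count minimums, the second quantification, pseudocount 1, posterior mean TPM, TPM over genes of at least 300 nt, levels with no length correction, other scalings and filters, DESeq2 1.42.0, and leaving out each library. Comparing densities in introns, neighbours that end near a member, and genes of the imprinted domains was chosen after values were seen. Python 3.11.15, pandas 2.3.3 and matplotlib 3.10.9 were used.

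Named members were the 12 highest by count, the 6 highest by TPM, the 5 widest in range, the 5 highest and 5 lowest against their partner, the 3 next to the minimum on each side, up to 5 over 4-fold apart between quantifications, members opposite listed genes, and described antisense RNAs. Other members named as examples, such as those sharing a partner or above all opposite-strand genes, were chosen after their values were seen. The partner was the opposite-strand coding gene with the largest overlap.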

Additional observations from a re-analysis of the deposited data

How the results depend on the processing

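The number of antisense RNAs depends on the minimum and the quantification. It was 155 at a mean of 100 expected counts, 268 at 50, 88 at 200 and 530 with the second quantification at 100, whose library totals are larger. It was 147 to 165 with each library left out. Their median level of 2.57 in log2 TPM with 0.1 added was 3.11 in TPM of the second quantification, 4.11 in TPM over genes of at least 300 nt and 3.73 as log2 CPM with no length correction, and 2.34 to 2.72 with each library left out. The median difference from the partner of -2.15 was -1.93 with a pseudocount of 1, -2.58 as log2 CPM, -2.31 for members whose exons overlap partner exons and -1.86 for those with no opposite-strand exon overlap, and -2.23 to -2.08 with each library left out. It was negative in each of these. Head-to-head members with starts that do not overlap were 6 at 1000 bases, 5 at 500 and 6 at 2000. Members within 2-fold between quantifications were 110, 101 to 116 with a library left out, 126 by TPM, and 141 after scaling to library totals, an alternative chosen after seeing the data. The spread test called 0 members under all 7 alternatives, including each library left out, although all-gene calls were 117 without a filter, 17 without library 1 and 49 without library 2. The cause of these differences was not tested. No paired analysis was possible because there was 1 group of libraries and nothing to pair. Precision is limited by 3 libraries and, for members near 100 counts, by counting error. The unknown strand setting limits every member that lies opposite a gene with many reads.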
